A study of Mus musculus with 16 samples.

Results

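The 49 genes described here encode proteins that a cell uses in the G2 phase and in mitosis. They were listed by gene symbol, with the genes named Kif left out, and each symbol matched 1 of the 53801 Ensembl gene identifiers in the count table. The 16 RNA libraries came from 9 mice aged 10 days, and each of cortex and striatum was represented by 4 libraries of control mice and 4 of Trrap-FBΔ mice. Trrap encodes a cofactor shared by several histone acetyltransferase complexes. The control mice had 1 floxed Trrap allele (Trrap Fl/+) and the Trrap-FBΔ mice floxed alleles only (Trrap Fl/Fl), and both carried the Camk2-Cre transgene on a mixed C57BL6/J-129sv background. Cre was thus also present in every control. The methods of the study name an inducible form of this transgene, a fusion of Cre to a modified estrogen receptor, and an inducer for these mice is not given in the sources used here. The Camk2a promoter is used to drive Cre in excitatory neurons of the forebrain, which no longer divide, while the libraries were made from all cells of the tissue. In such bulk samples, fewer cells of a type and less RNA per cell cannot be told apart. Mice 57, 59, 60 and 61 gave both Trrap-FBΔ tissues, and mice 58, 63 and 64 both control tissues. Mouse 55 gave a control cortex only and mouse 65 a control striatum only. Levels are given as CPM, the read count of a gene relative to the effective library size that the TMM factors of edgeR give.

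Progress from the G2 phase into mitosis is driven by the kinase CDK1 with its cyclins, and mitosis is left when the anaphase-promoting complex (APC/C) marks cyclin B and securin for degradation. Between these steps condensins compact the chromosomes, kinetochores tie them to the spindle, the spindle checkpoint waits for their attachment, and the midzone and the contractile ring divide the cell. Transcription of most of these genes is confined to dividing cells, late in the cycle. The early postnatal forebrain holds such cells among glial precursors, microglia, vascular cells and the progenitors beside the ventricles, whereas its neurons are post-mitotic.

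Between 28743866 and 48761429 reads were counted per library. Trrap itself, counted over the whole gene, was at 136 to 173 CPM in the control cortex and 121 to 146 CPM in the Trrap-FBΔ cortex, and at 140 to 151 CPM and 135 to 148 CPM in the striatum. These ranges overlapped, with log2 fold changes of −0.18 ± 0.075 (SE, edgeR adjusted p = 0.083) and −0.04 ± 0.048 (adjusted p = 0.52), so in these counts the genotype rests on the labels. Trrap in the cortex passed the threshold in some fits, namely without a filter on low counts (adjusted p = 0.046), with all 16 libraries in 1 fit (0.047) and without the control cortex of mouse 63 (0.034), with log2 fold changes between −0.23 and −0.12 over all fits. The 10 markers of cortical excitatory neurons were all lower in the striatum than in the cortex of the controls and summed to 4788 to 5886 CPM in the control cortex against 1330 to 2161 CPM in the control striatum. The 10 markers of striatal projection neurons did not set the tissues apart, with sums of 524 to 1173 CPM in the control cortex and 362 to 1628 CPM in the control striatum. The control striatum of mouse 58 had the lowest of these sums and the control striatum of mouse 64 the highest, so the results of the striatum are also given without them.

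The G2 and mitosis genes were lower in the Trrap-FBΔ mice in both tissues. Of the 48 members that passed the filter on low counts, 40 were called lower in the Trrap-FBΔ cortex, where 17.6% of all 18268 genes tested were called lower. A single member, Anln, was called higher, against 15.7% of all genes. In the striatum 38 members were called lower, against 15.8% of 18872 genes, and none higher, against 14.4%. The median log2 fold change of the members was −0.52 in the former tissue and −0.63 in the latter, while the medians of all genes tested were 0.0010 and −0.0055. Calls are edgeR quasi-likelihood tests with a Benjamini-Hochberg adjusted p under 0.05. The count of lower members in the striatum was 39 without the control striatum of mouse 58 (median −0.65) and 36 without that of mouse 64 (median −0.57).

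In 37 members all 4 Trrap-FBΔ cortices were below all 4 control cortices, a pattern found in 16.7% of all genes tested. The same number had all 4 Trrap-FBΔ striata below the control striata, against 16.0% of all genes, and 33 members did so in both tissues. The share of all genes with this pattern in both tissues was not computed. The decrease was present in every Trrap-FBΔ library. Relative to the mean of the controls of the same tissue, the median member was at −0.51 (mouse 57), −0.64 (mouse 59), −0.52 (mouse 60) and −0.48 (mouse 61) on the log2 scale in the Trrap-FBΔ cortices, and at −0.59, −0.69, −0.60 and −0.47 in the striata of the same mice. In the control libraries it was between −0.08 and 0.13, so the groups did not overlap. Mouse 59 had the lowest median and mouse 61 the highest in both tissues. The CPM of all 49 members, Cks2 included, summed to 350 to 394 in the control cortex and 250 to 266 in the Trrap-FBΔ cortex. The sums were 394 to 446 in the control striatum and 271 to 302 in the Trrap-FBΔ striatum.

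**Figure D1:**
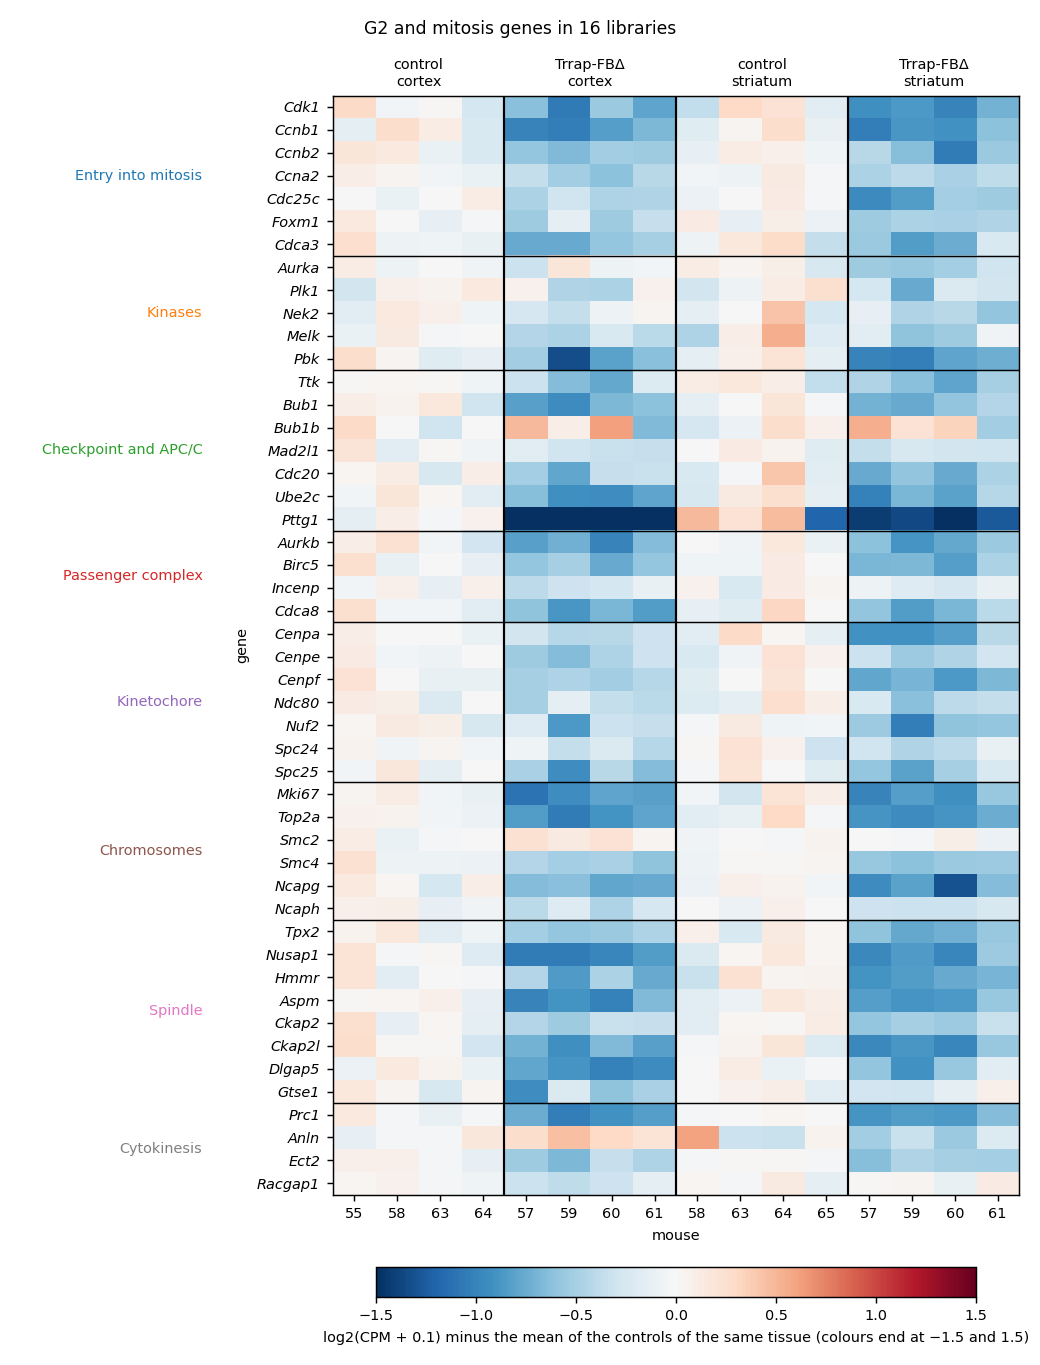
Level of the 48 tested members (rows, grouped by role) in each of the 16 libraries (columns, by mouse number), as log2(CPM + 0.1) minus the mean of the controls of the same tissue. Blue is lower and red is higher than these controls. The Trrap-FBΔ columns are blue in most rows, with a median between −0.47 and −0.69, and the rows with red in at least 1 of these columns are Aurka, Plk1, Nek2, Bub1b, Smc2, Gtse1, Anln and Racgap1.

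Of the 48 members, 36 were called lower in both tissues, which is 36 of the 40 called lower in the cortex and 36 of the 38 called lower in the striatum. The share of all genes called lower in both tissues was not computed, so this overlap has no background to be read against. The comparisons are also not independent, because 7 of the 9 mice gave both tissues. Melk, Incenp, Gtse1 and Racgap1 were called lower in the cortex only and Aurka and Ndc80 in the striatum only, which does not show that their changes differed between the tissues. Plk1, Nek2, Bub1b, Spc24 and Smc2 were called in neither. Cks2, which encodes a small CDK-binding subunit, did not pass the filter, with 2 to 15 counts and 0.047 to 0.341 CPM per library.

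Markers of cells that can divide at this age were in part also called lower in the Trrap-FBΔ libraries. Their counts moved with the libraries used, by different amounts. The counts of lower markers stand against the 17.6% (cortex) and 15.8% (striatum) of all genes given above. Markers of oligodendrocyte precursors were called lower in 8 (cortex) and 5 (striatum) of 10 genes, and summed to 751 to 867 CPM in the control cortex, 609 to 681 in the Trrap-FBΔ cortex, 1025 to 1341 in the control striatum and 883 to 1064 in the Trrap-FBΔ striatum. The sums of these precursor markers overlapped in the striatum. Leaving out 1 library in turn gave 7 to 8 lower precursor markers in the cortex and 4 to 7 in the striatum. Microglia markers were called lower in 9 and 6 of 11 genes, with sums of 432 to 488 against 323 to 398 CPM in the cortex. In the striatum their sums were 357 to 437 against 310 to 324 CPM. With 1 library left out, the microglia counts were 9 to 10 (cortex) and 6 to 7 (striatum). Progenitor markers were called lower in 5 and 3 of 10 genes. Their sums did not overlap in either tissue, with 390 to 482 against 282 to 328 CPM and 579 to 645 against 435 to 492 CPM. Leaving out 1 library in turn moved these progenitor counts to 3 to 6 in the cortex and 1 to 5 in the striatum, with 3 without cortex 55, 58, 59 or 60, 1 without striatum 58, 59, 60, 61 or 64, and 5 without striatum 63. Endothelial markers were called lower in 7 of 10 genes in the cortex (262 to 314 against 233 to 248 CPM), but in the striatum in 1 of 10, with overlapping sums of 229 to 316 and 224 to 270 CPM. That count was 6 without the control striatum of mouse 63, 2 without the Trrap-FBΔ striatum of mouse 61 and 0 without striatum 57, 58, 59, 60 or 64. Mural cell markers were called lower in 5 of 8 genes in the cortex (3 without cortex 58, 59 or 61) and in 2 of 8 in the striatum (1 without striatum 57, 58 or 60, and 4 without 63). Their sums did not overlap, with 359 to 443 against 287 to 349 CPM in the cortex and 386 to 455 against 294 to 371 CPM in the striatum. No marker of these 5 lists was called higher with all libraries, and none was at 0 in every library. Markers of neuroblasts were called lower in 3 of 10 genes in each tissue, with sums of 1290 to 1585 against 694 to 866 CPM and 846 to 1036 against 550 to 605 CPM. Their median log2 fold change was only −0.15 in the cortex and −0.056 in the striatum, while the lowest values were −1.43 and −0.996. The fold change was below 0 for 10 of these markers in the cortex and for 7 in the striatum. The neuroblast sums thus fell far more than the typical neuroblast marker. The excitatory neuron markers were called lower in 2 of 10 genes (cortex) and in 6 of 10 in the striatum, where they summed to 894 to 1326 CPM in the Trrap-FBΔ mice. The striatal count was 3 without the Trrap-FBΔ striatum of mouse 59 and 2 without that of mouse 61, and the cortical count was 0 with all 16 libraries in 1 fit. Astrocyte markers went both ways, with 2 lower and 3 higher of 10 in the cortex against 1 and 3 in the striatum, and with 1 library left out these counts were 1 to 2 (lower) and 1 to 3 (higher). The part of these cell types in the lower level of the mitotic genes was not tested.

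The upstream bases of 4 members are shown because these members hold the most upstream matches to 3 motifs among the genes described by library. All 4 were also called lower in both tissues, as were 36 of the 48 tested members. The genes described by library were chosen in part for low fold changes, so this overlap is no separate result. The motifs are the cell cycle genes homology region (CHR), to which the DREAM and MuvB complexes bind, searched as TTTGAA or TTCGAA. The others are the CCAAT box of NF-Y and the GC box GGGCGG of Sp1, and all were searched on both strands. The 250 bases before the annotated start are given 5′ to 3′ on the strand of the gene, from RefSeq on GRCm38.p6, with matches in capitals. They are Top2a at chr11:99024190-99024439, Cdk1 at chr10:69352913-69353162, Mki67 at chr7:135716380-135716629 and Hmmr at chr11:40733438-40733687, all on the minus strand. Top2a has 4 CHR, 6 CCAAT and 1 GC box match, Cdk1 has 2, 3 and 2, Mki67 has 2, 3 and 2, and Hmmr has 0, 5 and 1, with the GC box of Hmmr overlapping a CCAAT match.
Top2a: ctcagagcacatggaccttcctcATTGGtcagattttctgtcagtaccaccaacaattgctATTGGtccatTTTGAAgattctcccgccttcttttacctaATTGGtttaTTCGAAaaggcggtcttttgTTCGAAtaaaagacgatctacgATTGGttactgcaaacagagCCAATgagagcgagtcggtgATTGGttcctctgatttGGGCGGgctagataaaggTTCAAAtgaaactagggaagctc
Cdk1: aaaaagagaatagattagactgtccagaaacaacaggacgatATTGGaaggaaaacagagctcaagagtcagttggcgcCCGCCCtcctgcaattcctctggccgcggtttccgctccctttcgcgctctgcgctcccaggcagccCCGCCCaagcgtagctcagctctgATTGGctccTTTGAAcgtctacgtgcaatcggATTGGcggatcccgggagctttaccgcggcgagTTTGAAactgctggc
Mki67: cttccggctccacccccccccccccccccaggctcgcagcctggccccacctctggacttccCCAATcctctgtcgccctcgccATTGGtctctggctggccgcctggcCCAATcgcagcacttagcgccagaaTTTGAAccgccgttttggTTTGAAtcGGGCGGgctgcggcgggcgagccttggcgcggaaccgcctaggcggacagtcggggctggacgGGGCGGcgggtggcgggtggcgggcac
Hmmr: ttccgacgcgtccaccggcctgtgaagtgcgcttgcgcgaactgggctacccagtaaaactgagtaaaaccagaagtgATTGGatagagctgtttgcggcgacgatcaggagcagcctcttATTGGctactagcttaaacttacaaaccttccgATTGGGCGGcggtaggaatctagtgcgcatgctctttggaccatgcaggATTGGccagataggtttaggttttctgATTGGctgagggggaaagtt

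RefSeq windows of 300 bases (250 before and 50 after the start) were matched for 39 of the 49 members, in 42 windows. A CHR match was found in 69.0% of these windows, against 19.2% of all 32851 windows. CCAAT was found in 78.6% against 37.4%, the GC box in 76.2% against 35.7%, and CHR together with CCAAT in 64.3% against 7.52%. The windows of all genes include genes that are not expressed in the brain. CHR matches lay near the start, with a median of 2 bases after it, while the median CCAAT match lay at position −67.5 and the median GC box at −61 relative to it.

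**Figure D2:**
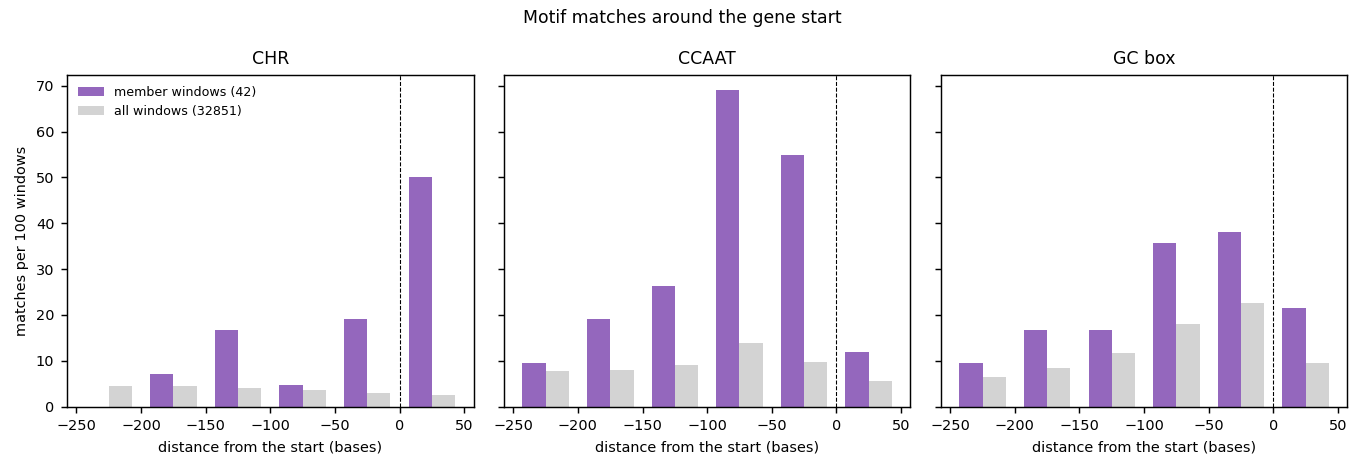
Matches per 100 windows (vertical axis) to the CHR, CCAAT and GC box motifs in bins of 50 bases around the annotated start (horizontal axis, bases), for the 42 windows of the members (purple) and all 32851 windows (grey). The member windows hold 50 CHR matches per 100 windows in the 50 bases after the start, against 2.52 in all windows, and 69.0 CCAAT matches per 100 windows between 100 and 50 bases before it, against 13.8.

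Among members called lower in both tissues, CHR and CCAAT occurred together in 73.3% of 30 windows (28 genes). Among the other members it was 41.7% of 12 windows (11 genes), and the difference was not tested. The windows of Pttg1, Nusap1, Nuf2 and Ncaph, all lower in both tissues, held none of the motifs, which says only that these letters are not in these windows.

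All 7 tested genes of entry into mitosis were called lower in both tissues. They are Cdk1, the cyclins Ccnb1, Ccnb2 and Ccna2, the CDK-activating phosphatase Cdc25c, the transcription factor Foxm1 and Cdca3, a trigger of mitotic entry. Cdk1, the mitotic kinase, was at 8.04, 6.34, 6.65 and 5.43 CPM in the control cortex (mice 55, 58, 63 and 64) and at 4.20, 3.10, 4.41 and 3.73 CPM in the Trrap-FBΔ cortex (mice 57, 59, 60 and 61). All Trrap-FBΔ cortices were below the lowest control, with a log2 fold change of −0.77 ± 0.14 (SE) and an adjusted p of 0.0017. In the striatum Cdk1 was at 6.11, 9.77, 9.18 and 7.09 CPM in the controls (mice 58, 63, 64 and 65) and at 4.13, 4.32, 3.90 and 4.78 CPM in the Trrap-FBΔ mice. Again the groups did not overlap, although the controls spread more, and the log2 fold change was −0.91 ± 0.15 (adjusted p = 0.0017).

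Ccnb1, the cyclin B1 that activates CDK1, had the lowest fold change of the entry genes. It was at 1.499, 2.01, 1.79 and 1.40 CPM in the control cortex and at 0.779, 0.754, 0.888 and 1.001 CPM in the Trrap-FBΔ cortex, with no overlap (log2 fold change −0.97 ± 0.17, adjusted p = 0.0016). The control striata had 1.73, 2.03, 2.39 and 1.82 CPM and the Trrap-FBΔ striata 0.912, 1.035, 1.005 and 1.255 CPM, again apart (−0.92 ± 0.15, adjusted p = 0.0019). The remaining entry genes had log2 fold changes between −0.66 (Cdca3) and −0.39 (Foxm1) in the cortex and between −0.74 (Cdc25c) and −0.44 (Ccna2) in the striatum. Foxm1 shares exons on the same strand with Tex52 and Gm44596 in the annotation, so its count is uncertain.

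The 5 further mitotic kinases split. Pbk, which phosphorylates mitotic and MAP kinase substrates, was lower in both tissues, with log2 fold changes of −0.81 ± 0.17 (cortex, adjusted p = 0.0038) and −0.91 ± 0.12 (striatum, adjusted p = 0.00051). Melk was called in the cortex only (−0.41 ± 0.12, adjusted p = 0.022) and Aurka, the spindle pole kinase, in the striatum only (−0.49 ± 0.12, adjusted p = 0.012, against −0.05 ± 0.13 in the cortex). Plk1, the polo-like kinase that acts from mitotic entry to cytokinesis, was at 2.85, 3.67, 3.61 and 3.85 CPM in the control cortex and 3.63, 2.51, 2.48 and 3.65 CPM in the Trrap-FBΔ cortex. Mice 57 and 61 thus lay within the controls (−0.19 ± 0.16, adjusted p = 0.39). Its striatal values were 2.71, 3.13, 3.58 and 3.91 CPM in the controls and 2.74, 1.92, 2.83 and 2.70 CPM in the Trrap-FBΔ mice, which overlapped (−0.39 ± 0.15, adjusted p = 0.083). Nek2, a centrosome kinase, had −0.16 ± 0.12 and −0.42 ± 0.17 and passed the test in neither tissue.

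Of the 7 genes of the spindle checkpoint and APC/C, 6 were called lower in both tissues and Bub1b in neither. Pttg1, or securin, the inhibitor of separase that APC/C destroys at anaphase, fell the most of all 48 members. It was at 8.04, 9.44, 8.65 and 9.20 CPM in the control cortex and at 2.01, 1.73, 1.88 and 2.40 CPM in the Trrap-FBΔ cortex. The lowest control was thus over 3 times the highest Trrap-FBΔ library, with a log2 fold change of −2.13 ± 0.11 (adjusted p = 2.9e-06). In the striatum it was at 10.4, 8.65, 10.4 and 3.20 CPM in the controls and 2.69, 2.83, 2.35 and 3.04 CPM in the Trrap-FBΔ mice (−1.57 ± 0.31, adjusted p = 0.0042). The groups did not overlap, but the control of mouse 65 was close to the Trrap-FBΔ mice and far from the other controls. Without it the log2 fold change was −1.85 (adjusted p = 0.00019).

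Bub1b, which encodes the checkpoint kinase-like protein BUBR1, varied between mice and did not separate the genotypes. It was at 4.83, 3.93, 3.17 and 3.95 CPM in the control cortex and 5.52, 4.22, 6.09 and 2.44 CPM in the Trrap-FBΔ cortex. The striata of the same Trrap-FBΔ mice had 6.39, 5.07, 5.53 and 2.999 CPM, and the control striata 3.65, 4.09, 5.26 and 4.59 CPM. Mouse 61 was below all controls in both tissues and mice 57 and 60 above them, and neither test was passed (0.20 ± 0.24, adjusted p = 0.54, and 0.18 ± 0.21, adjusted p = 0.54).

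Mad2l1, the MAD2 protein of the checkpoint complex, had the smallest fold change of the 6 genes called. It was at 19.3, 15.1, 17.1 and 16.3 CPM in the control cortex and 15.1, 13.7, 13.3 and 13.3 CPM in the Trrap-FBΔ cortex, where mouse 57 lay just above the lowest control (−0.29 ± 0.083, adjusted p = 0.020). In the striatum it was at 14.02, 15.2, 14.5 and 12.3 CPM in the controls and 10.8, 11.8, 11.52 and 11.3 CPM in the Trrap-FBΔ mice, without overlap (−0.30 ± 0.075, adjusted p = 0.013). The checkpoint kinases Bub1 and Ttk, the APC/C activator Cdc20 and its E2 enzyme Ube2c had log2 fold changes between −0.85 (Ube2c) and −0.48 (Ttk) in the cortex and between −0.75 (Ube2c) and −0.62 (Ttk) in the striatum.

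The chromosomal passenger complex corrects wrong attachments of chromosomes. All 4 of its members were called lower in the cortex and 3 in the striatum. Its kinase Aurkb was at 3.44, 3.76, 3.09 and 2.58 CPM in the control cortex and 1.77, 1.90, 1.54 and 2.002 CPM in the Trrap-FBΔ cortex (−0.83 ± 0.14, adjusted p = 0.0013). In the striatum the controls had 2.90, 2.82, 3.26 and 2.73 CPM and the Trrap-FBΔ mice 1.87, 1.54, 1.67 and 1.96 CPM (−0.73 ± 0.12, adjusted p = 0.0016). Aurkb was below the controls in all 8 Trrap-FBΔ libraries. Birc5 (survivin) and Cdca8 (borealin) had −0.62 and −0.76 in the cortex and −0.68 and −0.65 in the striatum, all called.

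Incenp, the scaffold of the same complex, was called in the cortex only. It was at 16.5, 17.96, 15.6 and 17.99 CPM in the control cortex and 12.9, 13.7, 14.1 and 15.7 CPM in the Trrap-FBΔ cortex, where mouse 61 reached the control range (−0.27 ± 0.076, adjusted p = 0.018). In the striatum it was at 16.9, 13.7, 17.5 and 16.6 CPM in the controls and 15.3, 14.01, 13.51 and 14.9 CPM in the Trrap-FBΔ mice. These overlapped because the control of mouse 63 was low (−0.16 ± 0.083, adjusted p = 0.17).

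Of the 7 kinetochore genes, the cortex had 5 called lower and the striatum 6, and all 7 had a negative log2 fold change in both. Cenpf, which is loaded on kinetochores in G2, was at 13.6, 11.7, 10.9 and 10.8 CPM in the control cortex and 8.26, 8.49, 8.10 and 8.63 CPM in the Trrap-FBΔ cortex (−0.49 ± 0.084, adjusted p = 0.0013). The control striata had 13.0, 14.7, 16.8 and 14.8 CPM and the Trrap-FBΔ striata 8.54, 9.06, 8.08 and 9.23 CPM (−0.76 ± 0.087, adjusted p = 0.00032). Cenpf was thus separated in both tissues, with the wider gap in the striatum. Nuf2, a subunit of the NDC80 complex that holds microtubules, was at 6.07, 6.53, 6.31 and 5.01 CPM in the control cortex and 5.19, 3.24, 4.75 and 4.65 CPM in the Trrap-FBΔ cortex. These overlapped through the Trrap-FBΔ cortex of mouse 57, and the call was close to the threshold (−0.42 ± 0.14, adjusted p = 0.039). It was kept in only 2 of 8 fits that left out 1 library. In the striatum Nuf2 was at 8.06, 9.01, 7.86 and 8.00 CPM in the controls and 5.58, 3.96, 5.39 and 5.47 CPM in the Trrap-FBΔ mice, without overlap (−0.69 ± 0.11, adjusted p = 0.0018).

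Within the NDC80 complex the other subunits gave −0.63 (Spc25, called), −0.37 (Ndc80, adjusted p = 0.052) and −0.27 (Spc24, adjusted p = 0.11) in the cortex. In the striatum the values were −0.53 (Spc25, called), −0.43 (Ndc80, adjusted p = 0.042) and −0.33 (Spc24, adjusted p = 0.10). Cenpa, the histone H3 variant that marks centromeres, and the motor protein Cenpe were called lower in both tissues, with −0.36 and −0.49 in the cortex and −0.77 and −0.41 in the striatum.

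The chromosome group held the proliferation marker Mki67, which coats mitotic chromosomes, topoisomerase Top2a and the condensin subunits. Mki67 was at 28.0, 29.5, 26.7 and 25.3 CPM in the control cortex and 12.7, 14.3, 15.7 and 15.5 CPM in the Trrap-FBΔ cortex (−0.91 ± 0.080, adjusted p = 2.8e-05). The control striata had 32.6, 27.7, 38.7 and 35.8 CPM and the Trrap-FBΔ striata 16.6, 18.9, 17.6 and 22.5 CPM (−0.84 ± 0.12, adjusted p = 0.00078). The groups were apart in both tissues, and mouse 61 was the highest of the Trrap-FBΔ striata. Top2a, which untangles sister chromatids, was at 23.8, 23.7, 22.2 and 21.4 CPM in the control cortex and 12.6, 10.9, 12.2 and 13.1 CPM in the Trrap-FBΔ cortex (−0.90 ± 0.071, adjusted p = 1.6e-05). Its striatal values were 23.1, 23.9, 31.8 and 25.3 CPM in the controls and 13.97, 13.3, 13.97 and 15.4 CPM in the Trrap-FBΔ mice (−0.88 ± 0.10, adjusted p = 0.00033). No Trrap-FBΔ library reached a control, and the control striatum of mouse 64 stood above the others.

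Of the core condensin ATPases, Smc4 was called lower in both tissues and Smc2 in neither. Smc4 was at 29.9, 24.2, 24.2 and 24.0 CPM in the control cortex and 18.7, 17.8, 18.2 and 16.7 CPM in the Trrap-FBΔ cortex (−0.52 ± 0.080, adjusted p = 0.00069). In the striatum it was at 24.0, 25.8, 25.7 and 26.0 CPM in the controls and 17.1, 16.6, 17.2 and 17.4 CPM in the Trrap-FBΔ mice (−0.57 ± 0.052, adjusted p = 0.00012). Smc4 was thus below the controls in all 8 Trrap-FBΔ libraries. Its partner Smc2 was at 17.7 to 20.5 CPM in the control cortex and 19.5 to 22.2 CPM in the Trrap-FBΔ cortex (0.16 ± 0.069, adjusted p = 0.10), and at 22.4 to 24.1 and 21.7 to 24.6 CPM in the striatum (−0.01 ± 0.056, adjusted p = 0.92). The difference between the changes of Smc4 and Smc2 was not tested.

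The condensin I subunit Ncapg was at 3.55, 3.27, 2.65 and 3.44 CPM in the control cortex and 2.01, 2.04, 1.83 and 1.86 CPM in the Trrap-FBΔ cortex (−0.74 ± 0.12, adjusted p = 0.0012). Its striatal values were 3.78, 4.23, 4.18 and 3.91 CPM in the controls and 2.04, 2.27, 1.57 and 2.53 CPM in the Trrap-FBΔ mice (−0.94 ± 0.14, adjusted p = 0.0012). After Pttg1 this was the lowest fold change in the striatum, and the groups were apart in both tissues. Ncaph, its partner in condensin I, had −0.33 ± 0.092 and −0.30 ± 0.073, called in both.

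**Figure D3:**
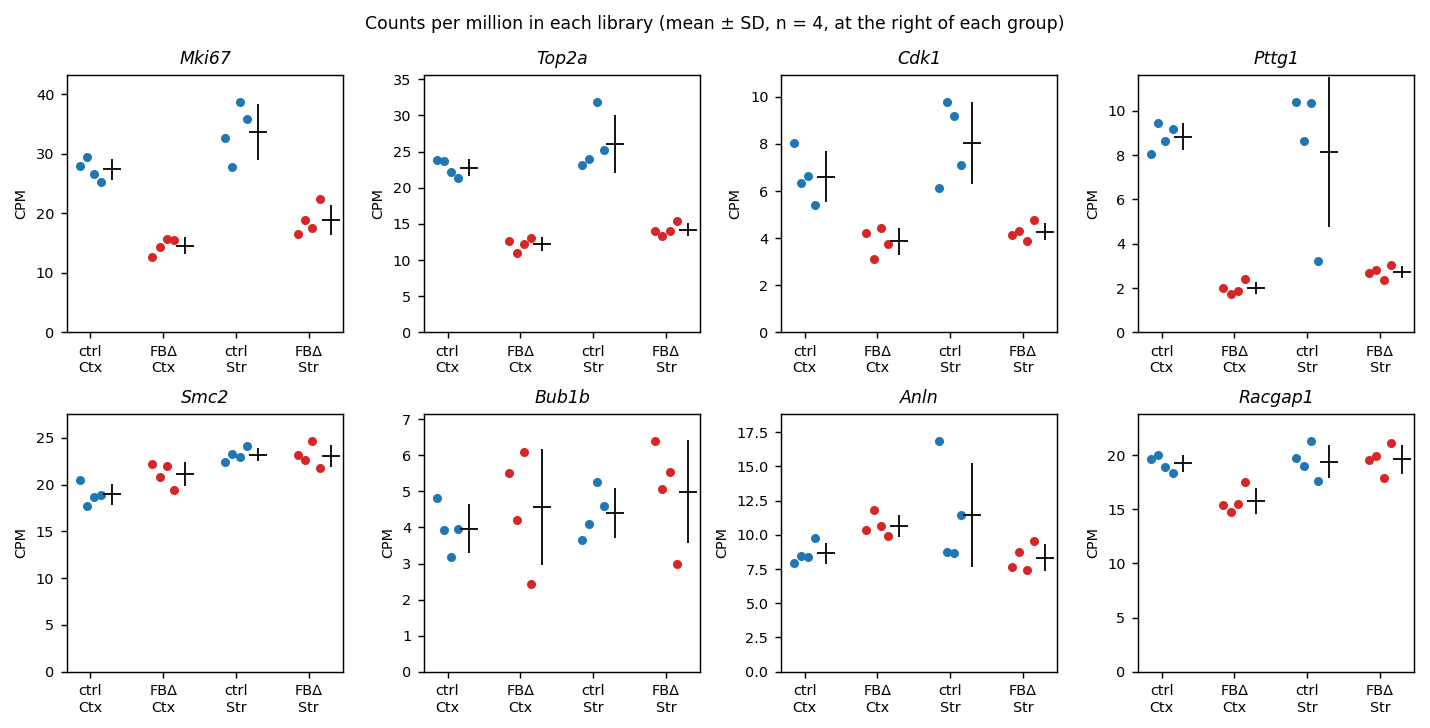
CPM (vertical axis, linear from 0) of 8 members in each library, with controls in blue and Trrap-FBΔ in red for the cortex (Ctx) and the striatum (Str), and the mean ± SD of 4 libraries as a cross. In the panels of Mki67, Top2a, Cdk1 and Pttg1 all red points are below the blue points of the same tissue, whereas those of Smc2 and Bub1b overlap, as do those of Anln and Racgap1 in the striatum.

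All 8 genes of spindle assembly were called lower in the cortex, as were 7 in the striatum, with Gtse1 as the exception (−0.58 ± 0.18, adjusted p = 0.026 in the cortex, and −0.17 ± 0.14, adjusted p = 0.39 in the striatum). The cortical values of Gtse1 overlapped between the genotypes. Its cortical call was kept in only 2 of 8 edgeR fits that left out 1 library (adjusted p up to 0.067). Nusap1, which bundles microtubules at the chromosomes, was at 7.72, 6.53, 6.73 and 5.84 CPM in the control cortex and 3.19, 3.18, 3.34 and 3.69 CPM in the Trrap-FBΔ cortex (−0.99 ± 0.11, adjusted p = 7.7e-05). Its striatal values were 6.87, 8.15, 8.97 and 8.18 CPM in the controls and 4.06, 4.39, 4.00 and 5.45 CPM in the Trrap-FBΔ mice (−0.85 ± 0.12, adjusted p = 0.00089). The groups were apart in both tissues. Hmmr, which anchors spindle poles, was at 7.06, 5.44, 6.10 and 6.02 CPM in the control cortex and 4.48, 3.35, 4.39 and 3.59 CPM in the Trrap-FBΔ cortex (−0.63 ± 0.12, adjusted p = 0.0024). The control striata had 3.91, 5.83, 5.10 and 5.14 CPM and the Trrap-FBΔ striata 2.61, 2.73, 2.89 and 2.999 CPM (−0.83 ± 0.13, adjusted p = 0.0012). No Trrap-FBΔ library reached a control of its tissue.

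Dlgap5, a spindle protein that stabilises kinetochore fibres, was at 2.12, 2.51, 2.34 and 2.09 CPM in the control cortex and 1.27, 1.17, 1.07 and 1.13 CPM in the Trrap-FBΔ cortex (−0.97 ± 0.13, adjusted p = 0.00033). In the striatum it was at 3.06, 3.27, 2.81 and 3.0 CPM in the controls and 1.98, 1.56, 2.01 and 2.71 CPM in the Trrap-FBΔ mice (−0.55 ± 0.15, adjusted p = 0.023). Mouse 61 almost reached the controls there, and the call was lost without mouse 57, 59 or 60 (adjusted p up to 0.061). Ckap2, a microtubule-stabilising protein, was at 6.40, 4.95, 5.51 and 4.86 CPM in the control cortex and 3.97, 3.69, 4.26 and 4.21 CPM in the Trrap-FBΔ cortex (−0.42 ± 0.11, adjusted p = 0.012). Its striatal values were 6.52, 7.41, 7.36 and 7.84 CPM in the controls and 4.84, 5.12, 4.96 and 5.72 CPM in the Trrap-FBΔ mice (−0.50 ± 0.090, adjusted p = 0.0028). These groups did not overlap. The spindle assembly factor Tpx2, the spindle pole protein Aspm and Ckap2l were called lower in both tissues, between −0.90 (Aspm) and −0.54 (Tpx2) in the cortex and between −0.86 (Ckap2l) and −0.67 (Tpx2) in the striatum.

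The 4 genes of cytokinesis went different ways. Prc1, which bundles the microtubules of the midzone, and Ect2, the exchange factor that activates RhoA, were called lower in both tissues, with −0.89 and −0.51 in the cortex and −0.81 and −0.53 in the striatum. Racgap1, a subunit of the centralspindlin complex, was at 19.6, 20.02, 18.9 and 18.3 CPM in the control cortex and 15.3, 14.8, 15.5 and 17.5 CPM in the Trrap-FBΔ cortex, without overlap (−0.28 ± 0.068, adjusted p = 0.0081). Its striatal values of 19.7, 18.9, 21.3 and 17.6 CPM in the controls and 19.5, 19.9, 17.9 and 21.1 CPM in the Trrap-FBΔ mice overlapped (0.01 ± 0.074, adjusted p = 0.90).

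Anln, or anillin, the scaffold of the contractile ring, which is also known from myelin, was the only member called higher. In the control cortex it was at 7.93, 8.47, 8.41 and 9.74 CPM and in the Trrap-FBΔ cortex at 10.3, 11.8, 10.6 and 9.93 CPM, so that all 4 Trrap-FBΔ libraries were above the controls (0.30 ± 0.084, adjusted p = 0.018). Its striatal values were 16.8, 8.77, 8.71 and 11.48 CPM in the controls and 7.62, 8.73, 7.46 and 9.53 CPM in the Trrap-FBΔ mice, which overlapped (−0.45 ± 0.19, adjusted p = 0.10). The highest value was that of the control striatum of mouse 58, which also had the highest sum of oligodendrocyte markers, at 9667 CPM against 3260 to 7193 CPM in the other control striata. Without it the striatal log2 fold change of Anln was −0.21 (adjusted p = 0.23). With all 16 libraries in 1 edgeR fit, Anln lost its call in the cortex (adjusted p = 0.17) and was called lower in the striatum (adjusted p = 0.040). By contrast, the cortical level of Anln was higher in the Trrap-FBΔ mice while 8 of 10 oligodendrocyte markers were called lower and none higher. That count is not stable, at 3 without cortex 58, 59, 60, 61 or 63, 4 with DESeq2 or sex as a covariate, and 0 with all 16 libraries in 1 fit. The sums of 1839 to 3246 CPM (controls) and 1352 to 2084 CPM overlapped (two-sided exact permutation p = 0.086). The part of oligodendrocytes in the values of Anln was not tested.

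The question whether the genotype acted differently in the tissues was addressed with an interaction term over all 16 libraries. No member was called in edgeR or in DESeq2, where edgeR called 0.242% of 19438 genes with a lower and 0.195% with a higher effect in the striatum. At an unadjusted p under 0.05 there were 5 members (Anln, Racgap1, Aurka, Cenpa and Cenpf), against 12.1% of all genes. The smallest p belonged to Anln, whose effect was 0.75 ± 0.23 lower on the log2 scale in the striatum (adjusted p = 0.16), followed by Racgap1, with 0.30 ± 0.099 higher (adjusted p = 0.20). The median difference over the 48 members was −0.04.

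**Figure D4:**
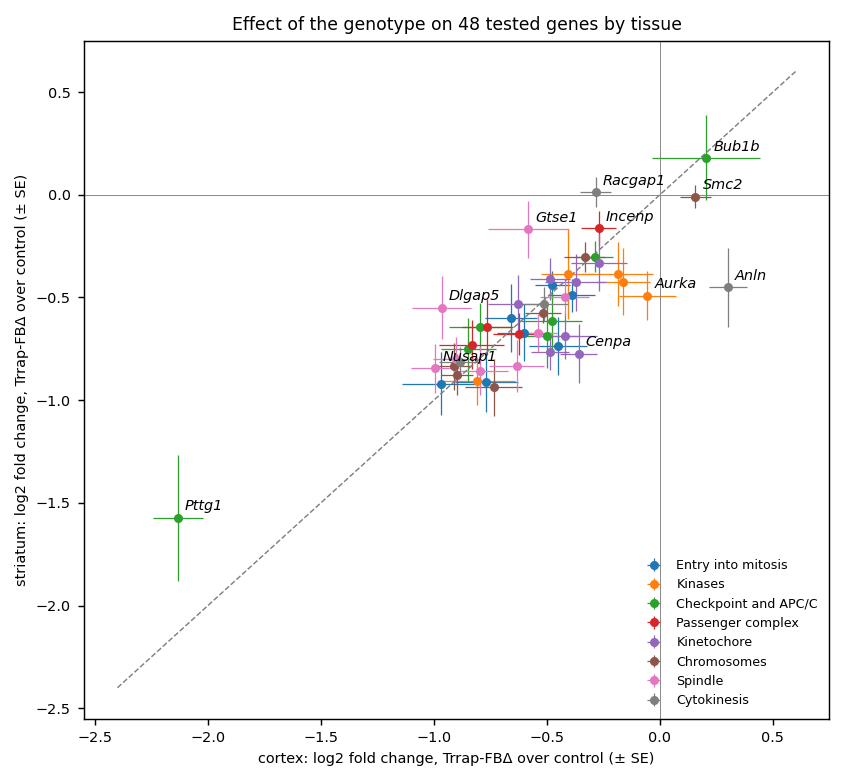
Log2 fold change of Trrap-FBΔ over control in the cortex (horizontal axis) and the striatum (vertical axis) for the 48 tested members, coloured by role, with bars of ± 1 SE. Points on the dashed line have equal values in both tissues. Pttg1 stands apart at −2.13 and −1.57, and Anln lies to the right of 0 in the cortex (0.30) and below 0 in the striatum (−0.45).

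Between the tissues of the controls, the members had a median log2 difference of 0.20 (striatum over cortex), against 0.012 over all genes. The share called higher was near that of all genes, while the share called lower was far below it. The members called higher in the striatum were 10 (Ccna2, Cenpf, Nuf2, Mki67, Smc2, Ncapg, Ckap2, Dlgap5, Prc1 and Ect2), where 22.5% of all genes were, and 1, Mad2l1, was called lower, where 22.0% were. Nuf2 (0.46 ± 0.13, adjusted p = 0.0089), Ckap2 (0.43 ± 0.096, adjusted p = 0.0014) and Dlgap5 (0.42 ± 0.14, adjusted p = 0.019) had the largest differences. Hmmr (−0.29 ± 0.12, adjusted p = 0.063) and Mad2l1 (−0.27 ± 0.078, adjusted p = 0.0089) had the smallest. The mice in part gave both tissues, and with the mouse as a replicate block 13 members were called higher and 0 lower, with Mad2l1 at −0.15 (adjusted p = 0.11). Of the 10 listed, Mki67 (adjusted p = 0.056), Ncapg (0.052) and Dlgap5 (0.061) lost their call with this block. Ncapg was also lost with most single libraries left out (adjusted p up to 0.16), and Mki67 without cortex 63 or 64 or striatum 64 or 65 (up to 0.12). In the same contrast 9 of 10 precursor, 10 of 10 oligodendrocyte and 4 of 10 progenitor markers were called higher, and none lower. Of the 11 microglia markers 5 were called lower and 0 higher. Of the 10 striatal projection neuron markers 1 was called higher and 1 lower. The part of cell types in the tissue differences was not tested.

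Among the Trrap-FBΔ mice, which all gave both tissues, 11 members were called higher in the striatum, where 26.5% of all genes were, and 4 lower (Aurka, Mad2l1, Cenpa and Hmmr), where 25.9% were. Ccna2, Mki67, Ckap2, Dlgap5, Prc1 and Ect2 were called higher in the striatum in both genotypes, but in the controls Mki67 and Dlgap5 were not called once the mouse was a block. The largest of these differences was that of Dlgap5, at 0.84 ± 0.15 (adjusted p = 0.00012) in the Trrap-FBΔ mice.

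**Figure D5:**
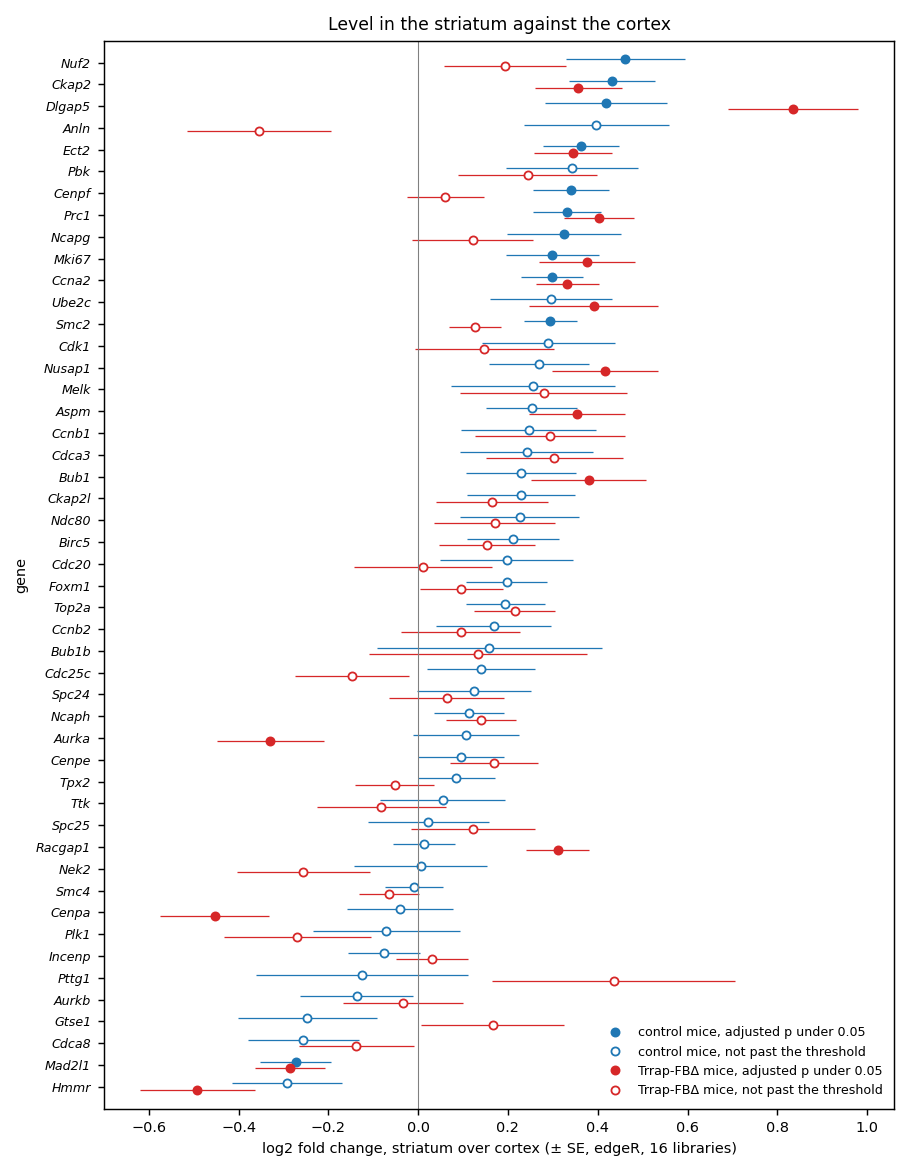
Log2 fold change of the striatum over the cortex (horizontal axis, ± SE) for each of the 48 tested members (rows) in the control mice (blue) and the Trrap-FBΔ mice (red), with filled points for an adjusted p under 0.05. Most blue points lie to the right of 0, and Nuf2 at 0.46 is the highest of them.

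Per kilobase of exon, the members spanned a wide range. In the control cortex Smc4 had the highest level, at 4.91 CPM per kb, followed by Pttg1 (4.42), Incenp (3.93), Smc2 (3.46) and Ccna2 (3.36 CPM per kb). Cks2 (0.30), Dlgap5 (0.33), Ndc80 (0.36), Cdc25c (0.37) and Ccnb1 (0.40 CPM per kb) were the lowest. The control striatum had Smc4 (4.87) and Smc2 (4.23) at the top and Cks2 (0.32 CPM per kb) at the bottom. Of the 6 most abundant members of the control cortex, Smc2 was called lower in neither tissue and Incenp in the cortex only, while Smc4, Pttg1, Ccna2 and Mki67 (2.72 CPM per kb) were called in both.

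Other genes of the same processes, in lists that were also chosen with earlier results known, are given beside the members. In the cortex 17.6% of all genes tested were called lower and 15.7% higher, and in the striatum 15.8% and 14.4%. Of 57 further mitosis genes tested in the cortex 22 were called lower and 6 higher (median log2 fold change −0.20), and of 58 in the striatum 26 lower and 5 higher (−0.27). The lowest called here with at least 50 counts were the kinetochore scaffold Knl1 (−0.88 ± 0.15) and the abscission factor Cep55 (−0.74 ± 0.15) in the cortex, and Cep55 (−0.92 ± 0.14) and Cdca2 (−0.88 ± 0.13) in the striatum. The highest were the centromere protein Cenpo (0.55 ± 0.092) and the condensin II subunit Ncapd3 (0.39 ± 0.053) in the cortex, and Cenpo (0.69 ± 0.082) and the checkpoint protein Mad1l1 (0.61 ± 0.099) in the striatum. Of the 13 mitotic kinesins, the cortex had 8 called lower (median −0.51) and the striatum 10 (median −0.58), and none was called higher. The lowest of these called were Kif18b (−0.77 ± 0.14) and Kif20b (−0.70 ± 0.10) in the cortex and Kif2c (−0.91 ± 0.11) and Kif23 (−0.80 ± 0.10) in the striatum.

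The APC/C activator Cdc20, its E2 enzyme Ube2c and its substrate securin were called lower in both tissues. Of 16 subunits and regulators of APC/C tested, 2 were called lower and 4 higher in the cortex (median −0.03), against 17.6% and 15.7% of all genes. In the striatum 0 were called lower and 4 higher (median 0.0051), against 15.8% and 14.4%. The highest called was Anapc15 in the cortex (0.39 ± 0.064) and Anapc13 in the striatum (0.46 ± 0.058), and the lowest was Fzr1 in the cortex (−0.32 ± 0.066). Among 15 genes of the DREAM, MuvB and NF-Y complexes, 2 were lower and 2 higher in the cortex (median 0.03) and 4 lower and 0 higher in the striatum (−0.07). These counts stand against the same shares of all genes. Rbl1, the pocket protein p107, fell the most of those called in the cortex (−0.51 ± 0.11), and Lin9 was called lower in both tissues (−0.32 ± 0.088 and −0.35 ± 0.097).

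Genes of the S phase had medians near 0. Of 35 tested, 7 were called lower and 2 higher in the cortex (median −0.07), against 17.6% and 15.7% of all genes. In the striatum 8 were called lower and 1 higher (−0.10), against 15.8% and 14.4%. Rrm2, the S-phase subunit of ribonucleotide reductase, and Tk1, thymidine kinase, were the lowest called with at least 50 counts, at −0.62 ± 0.082 and −0.55 ± 0.18 in the cortex and −0.75 ± 0.13 and −0.69 ± 0.17 in the striatum. The replication polymerase subunit Pole was called higher in both (0.23 ± 0.076 and 0.38 ± 0.11). The difference between the lists was not tested.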

How the data were processed

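RNA of cortex and striatum was taken from mice aged 10 days, and libraries of polyadenylated RNA were prepared with a stranded kit and sequenced in 51 cycles from a single end, with 4 libraries per lane. Per the labels and the methods of the study, the authors mapped the reads to GRCm38 with STAR 2.5.4b (bcl2fastq 1.8.4 for the raw reads) and counted uniquely mapped reads per gene of Ensembl 92 on the matching strand with featureCounts 1.5.0. The values they deposited are raw counts, without normalization or filter. A symbol was found for 53620 of the 53801 gene identifiers. Reads of near-identical copies are lost by unique mapping.

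Counts were analysed in R 4.3.3 with edgeR 4.0.16 (filterByExpr, TMM, quasi-likelihood test, Benjamini-Hochberg adjustment over all genes tested, threshold 0.05), in the 8 libraries of each tissue. The interaction and the contrasts between tissues were fitted over all 16 libraries. SE values are the log2 fold change divided by the square root of F. The step was tested on simulated counts with 200 changed genes. At a log2 change of 0.5 it recovered 74% of the changed genes in the cortex (17985 genes tested), 66% in the striatum (18608), 43% of interactions (19092) and 72% of tissue differences (19093). Only genes with a mean of at least 50 counts were changed, and far fewer than were called for the genotype or between the tissues in the real data. The libraries were simulated as independent, although most mice gave both tissues, so these rates need not hold for the real data. DESeq2 1.42.0 (the tool of the study), limma 3.58.1 (voom), other normalizations and filters, sex as a covariate and leaving out each library were the alternatives, and using only the mice that gave both tissues was added after seeing the data.

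Values in every library are given for fixed examples (Mki67, Top2a, Cdk1, Ccnb1, Aurkb, Plk1, Cenpf, Pttg1, Incenp and Smc4). They are also given for the 4 lowest and 2 highest fold changes in each tissue among members with a mean of at least 50 counts, the 2 smallest interaction p-values, and the 3 largest and 2 smallest tissue differences. Smc2 is given by its range outside this rule and was chosen after its values were seen. The members, the lists and the tests were chosen with earlier results of these data known. The 250 bases before and 50 after each start are from RefSeq on GRCm38.p6, and 10 members had no window there.

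Libraries with the same number come from the same mouse. Their deviations from the group means over 18770 genes correlated with r between 0.041 and 0.285 (median 0.263) in 7 pairs, against −0.247 to 0.147 in 25 pairs of different mice. No library was a duplicate, since chi-square per degree of freedom was 8.26 to 44.6 in 24 pairs within groups. The labels of sex matched in 16 of 16 libraries.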

Additional observations from a re-analysis of the deposited data

Results flagged for a closer look

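In 10 of 200 sets of 4 libraries (50 genes, Trrap included, in 4 groups) the highest or lowest library stood far from the others, and about 1 in 20 sets, or 10, does so by chance. In the control cortex these were Cdca3 of mouse 55 at 6.25 CPM (others 4.81 to 4.99), Smc4 of mouse 55 at 29.9 CPM (others 24.0 to 24.2) and Ttk of mouse 64 at 3.41 CPM (others 3.62 to 3.64). In the control striatum they were Ttk of mouse 65 at 2.82 CPM (others 3.95 to 4.13) and Smc4 of mouse 58 at 24.0 CPM (others 25.7 to 26.0). In the Trrap-FBΔ cortex it was Cdc25c of mouse 59 at 1.48 CPM (others 1.30 to 1.31). In the Trrap-FBΔ striatum they were Plk1 of mouse 59 at 1.92 CPM (others 2.71 to 2.83), Nuf2 of mouse 59 at 3.96 CPM (others 5.39 to 5.58), Cenpa of mouse 61 at 4.92 CPM (others 3.45 to 3.68) and Ncaph of mouse 61 at 6.06 CPM (others 5.71 to 5.76).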

How the results depend on the processing

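Outside the fits that left out a library, the number of members called lower was 38 to 41 in the cortex and 36 to 40 in the striatum, against 40 and 38. Anln was no longer called higher in the cortex with all 16 libraries in 1 fit, which leaves 0 members higher. For the controls, Mad2l1 was no longer called lower in the striatum with the mouse as a replicate block (0 members lower, 13 higher) and with only the mice that gave both tissues (0 lower, 12 higher). In these paired fits Mki67, Ncapg and Dlgap5 lost their higher call as well, and the replicate block left the interaction at 0 members called. In the tissue contrast of the Trrap-FBΔ mice the block gave 13 higher and 4 lower members, against 11 and 4. Among the members followed singly, Ube2c lost its call (0.39, adjusted p = 0.069) and Smc2 gained one (0.13, adjusted p = 0.033). Only members called in a tissue contrast of the main fits were followed, so others that gained a call are not named. With 1 library left out, Ube2c lost its call in 5 of 16 fits, Aurka in 4, Bub1 in 2 and Aspm in 1. Leaving out each library in turn gave 33 to 40 lower and 1 to 2 higher members in the cortex (median −0.56 to −0.49) and 35 to 39 lower and 0 higher in the striatum (−0.71 to −0.57). The interaction stayed at 0 members in both directions (−0.09 to 0.013). For striatum against cortex the ranges were 1 to 2 lower and 7 to 16 higher in the controls (0.12 to 0.23) and 3 to 5 lower and 8 to 12 higher in the Trrap-FBΔ mice (0.07 to 0.16). The count of 16 came without the control cortex of mouse 55, and 2 members were higher in the cortex without the Trrap-FBΔ cortex of mouse 61, the other being Smc2. Signs turned only in values that passed no test, for Smc2 in the striatum with upper-quartile normalization (0.012) and sex as a covariate (0.020), Racgap1 in the striatum with sex as a covariate (−0.020), and Cenpa between the control tissues with the replicate block (0.034) and with only the mice that gave both tissues (0.044). Without a library in turn, Smc2 (−0.043 to 0.019) and Racgap1 (−0.031 to 0.061) in the striatum, Aurka in the cortex (−0.13 to 0.03), and Cenpa (−0.15 to 0.0096) and Racgap1 (−0.046 to 0.042) between the control tissues had both signs. Melk, Gtse1, Nuf2, Incenp, Mad2l1, Cdc25c, Ttk and Ncaph in the cortex and Ndc80, Cdca3, Dlgap5 and Ncaph in the striatum lost their call in at least 1 setting, with an adjusted p of up to 0.14. Among the 8 fits that left out a library, Gtse1 and Nuf2 (cortex) kept their call in only 2 and Ndc80 (striatum) in 3. Melk and Incenp (cortex) and Cdca3 (striatum) kept it in 4. The causes were not tested. With 4 mice per group, the smallest exact permutation p of a single value is 0.029.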
